A study of Mus musculus with 4 samples.

Results

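The genes described are those of the AP-1 and EGR transcription factors, most of them immediate early genes: the FOS family (Fos, Fosb, Fosl1, Fosl2), the JUN family (Jun, Junb, Jund) and the zinc finger factors Egr1, Egr2 and Egr3. They were chosen by name, and every probe with one of these names was taken, which gave 11 probes for 10 of the 29924 gene names on the array, with a second probe for Fosl2 alone. Ureters of wild-type NMRI mouse embryos at E12.5, with the sex not determined, were kept as explants for 18 h. The treated group received 10 µM IWP-2, which inhibits Porcupine, an acyltransferase without which cells release no active WNT ligand. The control group received the solvent DMSO at 2:1000. The medium of both groups was free of serum. On each of 4 two-colour arrays, a treated and a control pool of ureters were hybridised together. Treated RNA carried the red dye AlexaFluor647 on arrays 1 and 3 and the green dye AlexaFluor555 on arrays 2 and 4. Each pool holds epithelium, mesenchyme and other cells of whole ureters, so that fewer cells of a type and less RNA per cell cannot be told apart.

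FOS proteins dimerise with JUN proteins to form AP-1, which binds DNA as a pair of basic leucine zippers, while EGR proteins bind GC-rich sites through zinc fingers. Growth factors induce many of these genes within minutes, largely through ERK, which phosphorylates ternary complex factors that sit with SRF on CArG boxes. The transcripts are short-lived, and dissection and handling of tissue are also known to induce them. SPRY and DUSP proteins dampen the ERK pathway, and NAB proteins hold back the EGR factors.

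Axin2, Sp5 and Lef1, which canonical WNT signalling is known to activate, were all lower with IWP-2. Their log2 ratios of IWP-2 over control were -1.56 ± 0.09 (SD, n = 4), -2.72 ± 0.28 and -1.47 ± 0.16. Raw gene spot intensity had a median of 368.4 to 711.2 per control channel and of 385.3 to 693.8 per treated channel. Of the 22455 genes tested, 33.1% passed the limma test at an adjusted p of 0.05 in either direction, 15.0% as lower and 18.1% as higher. The labels count 4 replicates but do not say whether the pools were cultured on separate days, so that the p-values measure the spread between these pools and arrays.

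Sequences at the start sites are shown for the genes that passed the test and had a match to a searched motif. RefSeq (GRCm38.p6) gave 250 bases before at least 1 start site of 7 of the 10 genes, with 5 overlapping or neighbouring windows for Egr2 and none for Fosl1, Egr1 and Egr3. The stretches printed first lie at chr4:95052223-95052472 (Jun, minus strand), chr8:84978749-84978998 (Junb, minus strand) and chr7:19310046-19310295 (Fosb, minus strand). Each ends with the base before the start site, and capitals mark the matches.

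Jun: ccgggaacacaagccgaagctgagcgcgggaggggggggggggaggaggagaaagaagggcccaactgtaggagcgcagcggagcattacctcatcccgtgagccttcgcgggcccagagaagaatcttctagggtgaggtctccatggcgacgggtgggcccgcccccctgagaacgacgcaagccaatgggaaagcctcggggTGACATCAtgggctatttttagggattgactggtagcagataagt

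Junb: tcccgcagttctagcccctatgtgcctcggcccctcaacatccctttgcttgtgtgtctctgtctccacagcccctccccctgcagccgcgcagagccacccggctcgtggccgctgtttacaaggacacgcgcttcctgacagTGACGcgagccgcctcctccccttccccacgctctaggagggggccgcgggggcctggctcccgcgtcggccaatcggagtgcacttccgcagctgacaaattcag

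Fosb: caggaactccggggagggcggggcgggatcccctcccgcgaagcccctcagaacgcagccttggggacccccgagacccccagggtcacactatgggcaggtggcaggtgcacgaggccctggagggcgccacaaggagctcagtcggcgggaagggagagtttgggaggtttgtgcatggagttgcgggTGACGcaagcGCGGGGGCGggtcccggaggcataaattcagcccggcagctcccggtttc

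In the Jun stretch the capitals mark TGACATCA, the variant of the cyclic AMP response element (CRE) for which the Jun promoter is known, 45 bases before the start. These letters occurred in 2.93% of 32817 windows of the same length, both strands searched. The capitals in Junb mark TGACG, a part of the CRE, 106 bases before the start, and these letters occurred in 17.7% of the windows. The Fosb stretch held TGACG 60 bases before the start and the EGR site GCGGGGGCG, present in 2.57% of the windows, 50 bases before it. Windows of Egr2 around different start sites held a CArG box, a motif found in 1.47% of all windows. They lie at chr10:67537484-67537513 and chr10:67537787-67537816 (plus strand), and capitals mark the box.

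Egr2, first box: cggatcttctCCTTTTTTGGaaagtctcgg

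Egr2, second box: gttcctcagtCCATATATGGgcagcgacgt

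Fos held TGACG 129 and 66 bases before its start, Fosl2 held GCGGGGGCG 79 bases before it, and the Jund window held none of the motifs. TGACG also occurred on both strands in 3 overlapping windows of Egr2, 111 and 55 bases before the start in the first of these. The complete CRE TGACGTCA, the AP-1 site TGACTCA and the TCF/LEF site CTTTGAT were in none of the 11 windows of these genes, while they occurred in 1.55%, 4.46% and 3.21% of all windows. TGACG is part of TGACGTCA, so that every complete CRE also counts as a match to it. A match describes letters only.

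Of the 10 genes 8 could be tested, and 5 of them passed. Jun and Egr2 were lower with IWP-2, and Fosb, Junb and Jund were higher, so that genes of the JUN family moved in opposite directions. Fos and Egr1, the members most used as readouts of an immediate early response, did not pass. None of the changes was large: in the main fit the 95% intervals of the fold changes of all 8 lay between 0.624 and 1.30 times the control. With the processed signals in place of the raw ones, the log2 ratios of the 8 went from -0.59 for Egr2 to 0.36 for Junb. The share of members past the test has to be read against the 33.1% of all genes that passed it.

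**Figure D1:**
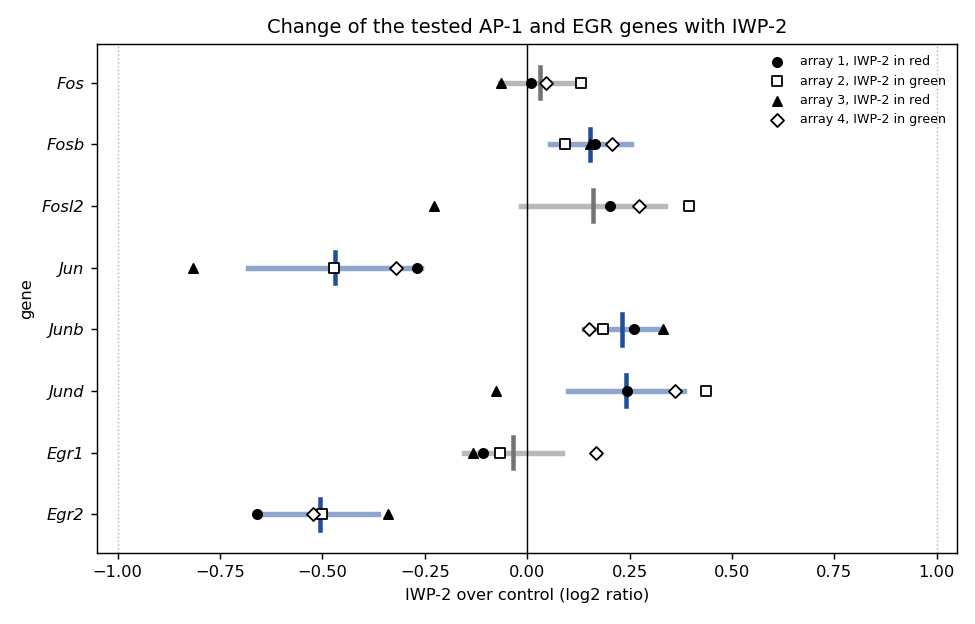
Log2 ratio of IWP-2 over control (horizontal axis) for the 8 AP-1 and EGR genes tested. Symbols are the 4 arrays, filled where IWP-2 was in red, vertical ticks are means and horizontal bars are 95% intervals of the limma fit. Colour marks the genes past the test, and dotted lines mark a change of 2-fold. Jun and Egr2 lie left of 0 on all arrays. Array 3 lies furthest from the rest for Fosl2, Jun and Jund, and array 4 for Egr1, but none of these was flagged as a far array.

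Jun, the founding partner of AP-1 dimers, was measured by a probe at chr4:94716928-94716987 (minus strand, mm9). Its normalised log2 levels in the control channels of arrays 1 to 4 were 13.14, 13.41, 13.40 and 13.27, against 12.87, 12.94, 12.59 and 12.95 with IWP-2. All treated levels lay below all control levels, with the lowest on array 3. The log2 ratios were -0.27, -0.47, -0.82 and -0.32, with a mean of -0.47 ± 0.25 (SD, n = 4) and an adjusted p of 0.00909 (limma). This left 72.2% of the control level, with a 95% interval of the log2 ratio from -0.68 to -0.26. Without array 3 the fitted log2 ratio was -0.33 with an adjusted p of 0.0111.

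Junb, whose protein also pairs with FOS but often acts against JUN, was read by a dim probe at chr8:87501881-87501940 (minus strand, mm9), with raw intensities between 93.02 and 304.5. The log2 levels were 7.37, 7.57, 7.71 and 7.68 in the controls and 7.63, 7.76, 8.04 and 7.84 with IWP-2. Treated exceeded control on every array, but the groups overlapped, since the arrays differed by more than the treatment. The log2 ratios were 0.26, 0.19, 0.33 and 0.15, a mean of 0.23 ± 0.08 (SD, n = 4), or 1.17-fold, with an adjusted p of 0.0062. The normalisation adds an offset that draws ratios of such dim probes towards 0, and with an offset of 16 in place of 50 the log2 ratio was 0.28. The 60 bases of the probe are shown because Junb alone passed the test in every alternative fit that kept it.

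Junb probe: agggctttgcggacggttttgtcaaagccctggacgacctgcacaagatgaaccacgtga

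Jund, in general the most steadily expressed JUN factor, was read by a bright probe at chr8:73224436-73224495 (mm9). Its log2 levels were 15.48, 15.55, 15.81 and 15.50 in the controls and 15.72, 15.99, 15.74 and 15.86 with IWP-2. On array 3 the treated level was the lower one, and on the other arrays it was the higher. The log2 ratios of 0.24, 0.44, -0.08 and 0.36 gave a mean of 0.24 ± 0.23 (SD, n = 4), or 1.18-fold, with an adjusted p of 0.0232. The dye effect in the fit was -0.16 for red over green, and without the dye term the adjusted p was 0.0762. Without replicate 1 or without replicate 2 it was 0.0728 and 0.0575, so that the call for Jund rested on each of these arrays.

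**Figure D2:**
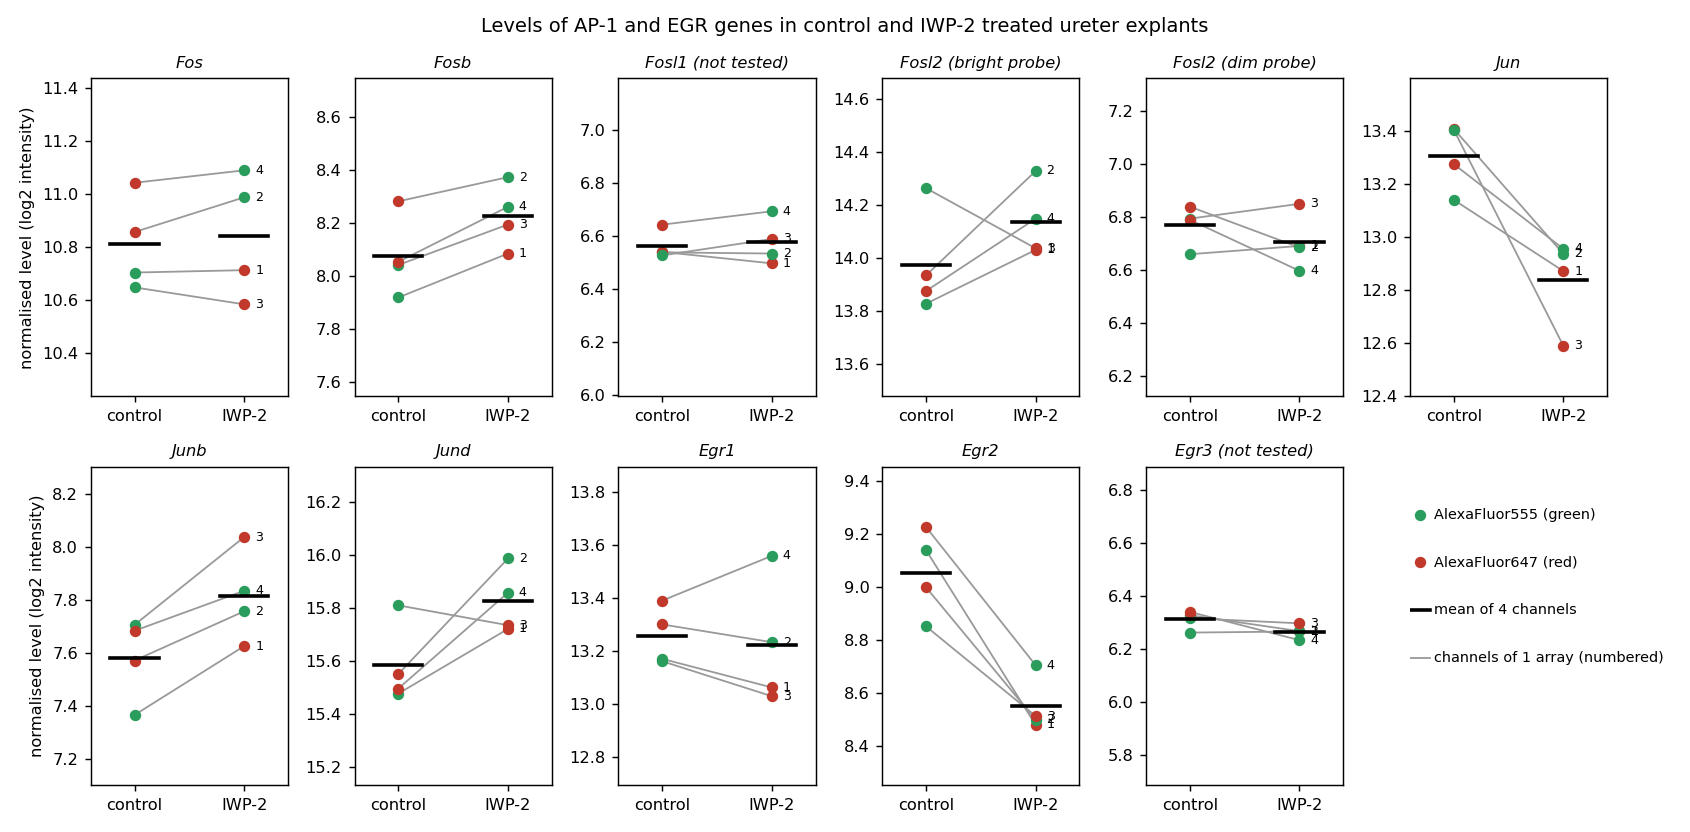
Normalised log2 intensity (vertical axis, each panel with its own range of equal height) of each AP-1 and EGR probe in the control and IWP-2 channels. Points are channels, coloured by dye, lines join the channels of an array, and bars are means of 4 channels; Jun and Egr2 fell on all arrays with no overlap between the groups, while the Junb points rose on all arrays and overlapped.

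Fos itself, the best known immediate early gene, was well above background in all 8 channels. Its probe at chr12:86817900-86817959 (mm9) gave control log2 levels of 10.70, 10.86, 10.65 and 11.04 and IWP-2 levels of 10.71, 10.99, 10.58 and 11.09. The treated channel was the higher on 3 arrays, and the arrays spread over a wider range than the channels of any of them. The mean log2 ratio was 0.03 ± 0.08 (SD, n = 4; adjusted p = 0.602), and its 95% interval spans fold changes from 0.955 to 1.09.

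Fosb, a close relative of Fos, was read at chr7:19888168-19888227 (minus strand, mm9). Its log2 levels were 7.92, 8.28, 8.04 and 8.05 in the controls and 8.08, 8.37, 8.19 and 8.26 with IWP-2. The treated level was the higher on every array, and the groups overlapped. The log2 ratios were 0.17, 0.09, 0.15 and 0.21, with a mean of 0.15 ± 0.05 (SD, n = 4), or 1.11-fold, and an adjusted p of 0.0304. This call was lost without replicate 1, 3 or 4, with adjusted p of 0.0981, 0.0926 and 0.142. The fitted log2 ratios were then 0.15, 0.16 and 0.125.

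Fosl2, which encodes FRA2, had probes that start 4988 bases apart on chromosome 5, and they did not give the same reading. The bright one at chr5:32460076-32460135 had raw intensities between 10350 and 23630 and log2 ratios of 0.20, 0.39, -0.23 and 0.27. As for Jund, array 3 had the opposite sign. Its mean was 0.16 ± 0.27 (SD, n = 4) with an adjusted p of 0.14, and the dye effect in the fit was -0.17 for red over green. Without array 3 the fitted log2 ratio was 0.27 with an adjusted p of 0.0195. Without array 1 it was 0.05 with an adjusted p of 0.532. That fit gave array 3 as much weight as arrays 2 and 4 together. The dim one at chr5:32455088-32455147 had raw intensities between 49.63 and 122.2 and log2 ratios of 0.03, -0.15, 0.06 and -0.19, with a mean of -0.06 ± 0.13. It was above background in all channels but, as the dimmer probe, did not enter the test. The mean over both probes gave 0.05 with an adjusted p of 0.474.

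Fosl2, dim probe: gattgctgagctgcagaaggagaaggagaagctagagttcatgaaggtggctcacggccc

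Fosl1, which encodes FRA1, rose well above background in 1 control channel and 2 treated channels. It was therefore not tested. Its log2 levels lay between 6.53 and 6.64 in the controls and between 6.50 and 6.69 with IWP-2 (probe at chr19:5455496-5455555, mm9).

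Egr1, like Fos a common marker of ERK activity, was bright and did not pass. Its probe at chr18:35024395-35024454 (mm9) gave control log2 levels of 13.17, 13.30, 13.16 and 13.39 and IWP-2 levels of 13.06, 13.23, 13.03 and 13.56. Arrays 1 to 3 had the treated channel lower and array 4 had it higher. The mean log2 ratio was -0.03 ± 0.14 (SD, n = 4), with a 95% interval from -0.16 to 0.09 and an adjusted p of 0.635.

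Egr2, known from the hindbrain and from myelinating Schwann cells, gave the most significant change of the members. Its probe at chr10:67004798-67004857 (mm9) had log2 levels of 9.14, 8.999, 8.85 and 9.23 in the controls and 8.48, 8.50, 8.51 and 8.70 with IWP-2. Every treated level was below every control level. The log2 ratios were -0.66, -0.50, -0.34 and -0.52, and their mean of -0.51 ± 0.13 (SD, n = 4; adjusted p = 0.00166) left 70.5% of the control level. Levels that did not overlap between the groups, as for Jun and Egr2, were found as lower in 11.5% of all genes tested and as higher in 11.0%. Of 5 neural crest markers 3 were higher and none was lower, with a median log2 ratio of 0.28, and of those that mark glial cells and their precursors Erbb3 was at 0.43 ± 0.09 (adjusted p = 0.00131) and Sox10 at -0.09 ± 0.28 (adjusted p = 0.52). Whether Egr2 moved with glial cells was not tested.

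Egr3 was not well above background in any of the 8 channels, with log2 levels between 6.26 and 6.34 in the controls and between 6.23 and 6.30 with IWP-2. No change can be given for it. The probe lies at chr14:70479222-70479281 (mm9), and its 60 bases are shown because the reading rests on them alone.

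Egr3 probe: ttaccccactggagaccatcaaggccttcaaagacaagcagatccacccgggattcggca

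The study itself kept changes over 2-fold on each array with an intensity over 100. Its methods and its results do not name the same number of arrays for this stage, and the filter was applied here to the 4 arrays analysed, counted as 4 replicates as in the labels. No member passed this filter, nor did any with the limit at 1.5-fold. By the same filter 104 of the 29924 gene names (0.348%) were lower and 22 (0.0735%) were higher.

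Fos and Egr1 varied between arrays rather than with treatment. The mean of both channels of Fos was 10.71, 10.92, 10.61 and 11.06 on arrays 1 to 4, a range of 0.451 on the log2 scale, wider than that of 95% of the genes tested. For Egr1 these means were 13.12, 13.27, 13.10 and 13.47. Both genes were highest on array 4, lowest on array 3 and second highest on array 2. Their means were thus higher with IWP-2 in green (arrays 2 and 4) than in red (arrays 1 and 3). The part of the dye order in this was not tested. Over the 8 channels, which share arrays in pairs, the levels of Fos and Egr1 correlated with a Pearson r of 0.89. The range between arrays was 0.376 for Junb, 0.326 for Fosb and 0.283 for Egr2, against a median of 0.162 over all genes. Jun and Jund, with ranges of 0.175 and 0.173, lay near that median.

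**Figure D3:**
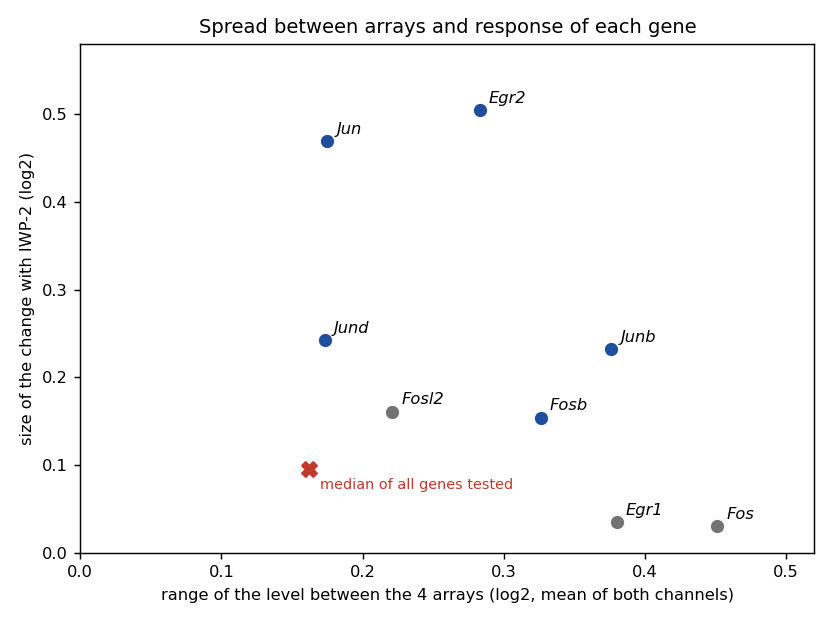
Size of the change with IWP-2 (vertical axis, absolute mean log2 ratio) against the range between the 4 arrays of the mean log2 level of both channels (horizontal axis) for the 8 AP-1 and EGR genes tested. Blue points passed the test, grey points did not, and the cross marks the medians of all genes (0.0955 and 0.162); Fos and Egr1 lie at the lower right, Jun and Egr2 at the top.

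Among pairs of members, Fosl2 and Jund, the pair with array 3 reversed, had the highest r, 0.957. Jun and Egr2 had 0.749, and Jund and Egr2 had the lowest, -0.797. Control and treated channels were pooled for these r, so that they also hold the changes with IWP-2 given above. The 5 named genes outside the members whose levels were most like those of Fos over the 8 channels were Aspscr1 (r of 0.995), Cck (0.984), Mlxipl (0.977), Cd300lf (0.969) and Gm10087 (0.968). None of them passed the test (adjusted p from 0.291 to 0.931). As they were picked for their likeness to Fos, which did not pass either, this follows largely from the choice.

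Genes that feed into the members or answer to them were read from lists. Counts in these lists and in the marker lists have to be read against all genes tested. Of those, 15.0% passed as lower and 18.1% as higher. Of 14 genes of the ERK, JNK and SRF input, 1 was lower, 2 were higher and 11 did not pass. Mapk8, which encodes the kinase JNK1 that phosphorylates JUN, was the lower one at -0.51 ± 0.58 (SD, n = 4; adjusted p = 0.00513), with an SD above its mean. Its log2 ratios were -0.19 and 0.09 on arrays 1 and 3, with IWP-2 in red. On arrays 2 and 4, with IWP-2 in green, they were -1.19 and -0.755, so that the fall was seen mainly with 1 dye order. Elk3 and Elk1, ternary complex factors, were higher at 0.30 ± 0.03 and 0.14 ± 0.08, while Srf was at 0.01 ± 0.20 and did not pass (adjusted p = 0.922). The median of the list was 0.08, against 0.00 over all genes.

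Of 10 other partners of AP-1 dimers tested, 2 were lower and 5 were higher, with a median log2 ratio of 0.17. Batf3 (-0.63 ± 0.30) and Jdp2 (-0.35 ± 0.22), which dimerise with JUN and often repress AP-1 sites, were lower, with adjusted p of 0.00203 and 0.0175. Maf (0.45 ± 0.27), Batf (0.42 ± 0.14) and Atf3 (0.31 ± 0.13) rose the most of these 10, all with an adjusted p of 0.00352 or less. Batf2 was not tested. MAF is also a factor of macrophages, and of 6 macrophage markers 4 were higher and none was lower, with a median log2 ratio of 0.17 and summed levels of 13320 to 16450 in the controls and 15930 to 18710 with IWP-2. Their part in these values was not tested.

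The other immediate early genes also split. Of 21 tested, 8 were lower and 5 were higher, and the median was 0.02. Ier5 (-0.57 ± 0.14), Myc (-0.51 ± 0.12) and Cyr61 (-0.44 ± 0.11) fell the most, with Ier3, Ctgf, Sgk1, Arc and Egr4 also lower. Myc is known as a target of canonical WNT signalling, and Cyr61 and Ctgf as matricellular genes that answer to YAP and SRF. Klf2, a factor of endothelial cells under flow, rose by 0.85 ± 0.24 (adjusted p = 0.000425), and Klf4 and Klf10 rose by 0.26 ± 0.20 and 0.26 ± 0.10. Of 6 endothelial markers 4 were higher and none was lower, with a median of 0.19 and a highest value of 0.37. The part of endothelial cells in the rise of Klf2 was not tested. Egr4, named here after its values were seen, was at -0.35 ± 0.05 (adjusted p = 0.00128), so that 2 of the EGR genes were lower, Egr1 did not pass and Egr3 had no reading.

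Feedback genes of the ERK pathway and co-repressors of EGR factors held the largest rise of these lists. Of 14 genes, 7 were higher and 1 was lower, with a median of 0.16. Spry1 was at 1.02 ± 0.13 (adjusted p = 3.21e-05), or 2.03-fold, Spry2 at 0.82 ± 0.04 and Dusp10, a phosphatase of JNK and p38, at 0.51 ± 0.23. Spry4 did not pass, at 0.08 ± 0.15 (adjusted p = 0.349). Dusp2 was the lower one, at -0.29 ± 0.10. Sprouty genes are strong in epithelium branching under FGF or GDNF signals. All 7 markers of the ureteric epithelium were higher, at 0.24 to 0.34 (median 0.30). Their summed levels were 179900 to 195200 in the controls and 205300 to 255400 with IWP-2. Whether the share of epithelial RNA moved Spry1 and Spry2 was not tested.

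Of 10 tested genes known as targets of AP-1 or EGR factors, 8 did not pass. Timp1, an inhibitor of metalloproteases, was lower at -0.33 ± 0.03, and F3, the tissue factor gene, was higher at 0.62 ± 0.15. The metalloprotease genes Mmp3, Mmp10 and Mmp13 were not tested for lack of signal.

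**Figure D4:**
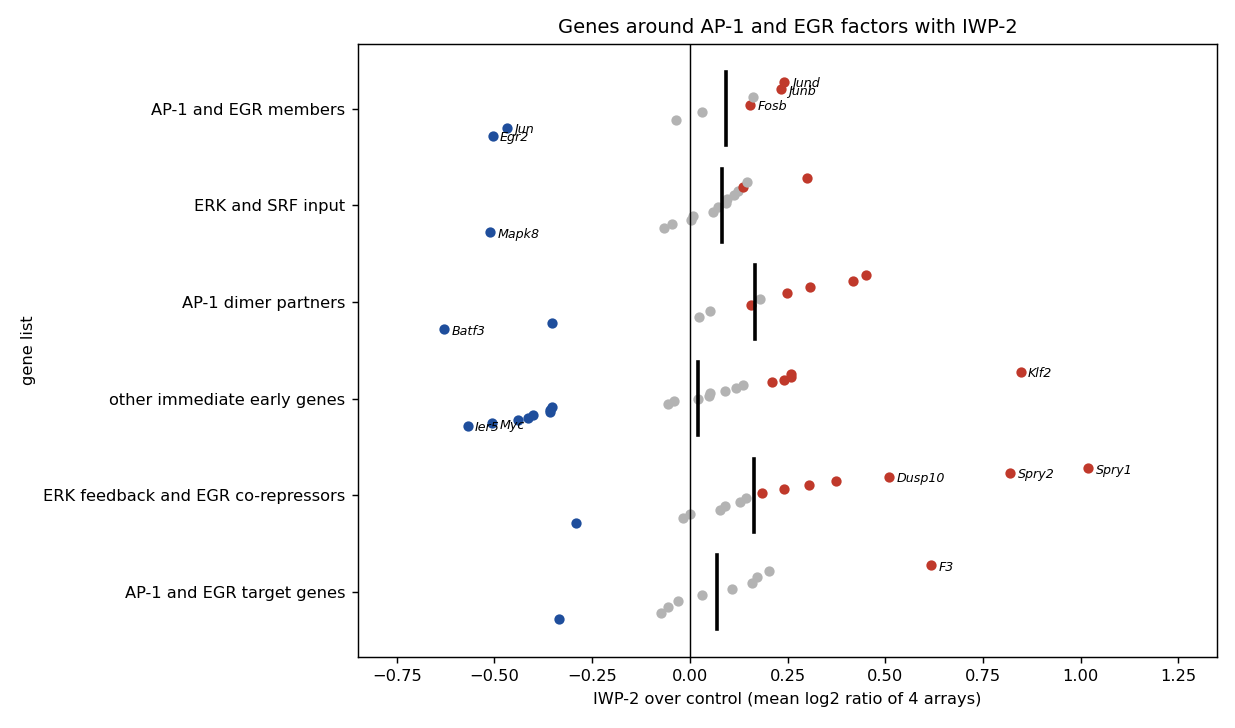
Mean log2 ratio of IWP-2 over control (horizontal axis) of each tested gene in 6 lists (rows). Blue points passed the test as lower, red points as higher, grey points did not pass, black bars are list medians, and names are given for some of the genes with the largest changes; Spry1, Klf2 and Spry2 lie furthest to the right, and the AP-1 and EGR genes all lie between -0.51 and 0.24.

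The other marker lists also held genes that passed, and those of the mesenchyme went both ways. Of 6 markers of the ureteric mesenchyme, Tbx18 (-0.74) and Tcf21 (-0.67) were lower, Pdgfrb was higher (0.80) and 3 did not pass. Of 6 nephron progenitor markers 5 were higher, with Six2 at 1.14 ahead of the others, and Crym was lower at -0.96. Of 6 blood markers 4 were higher and none was lower, with a median of 0.27. Of these, Hba-x and Hbb-b1 were higher on every array, and Hba-a1 was at -0.03 on array 2. Hbb-y was at 0.61 and 0.73 on arrays 1 and 3, with IWP-2 in red, and at -0.10 and -0.14 on arrays 2 and 4.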

How the data were processed

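Spot values were extracted by the authors with Agilent Feature Extraction 10.7.3.1, per the submitters' processing notes. The deposited scanner files hold raw intensity values, processed intensity values (per the file headers background-subtracted and dye-normalised), spot flags and a log10 ratio of red over green, used only to check directions (r = 0.987 on array 1). The authors' series table holds signed fold changes rounded by them, treated here as a score, whose normalisation is not given in the sources used here. It served as an alternative (r of 0.91 to 0.916 with the processed ratios).

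Raw intensities of 174979 spots per array were corrected in limma 3.58.1 (R 4.3.3) with normexp (offset 50) and normalised by loess (span 0.3). Control spots and outlier spots (3.01% to 3.38%) were left out, and the spots of a probe, 4 for most, were averaged. No gene spot was saturated. The brightest probe stood for a gene, and a gene was tested if more than 0.5 of its spots were well above background on all 4 arrays in the channel of at least 1 group. Log2 ratios were fitted with lmFit and eBayes with a dye term. Where 1 replicate was left out, the fitted log2 ratio gave both dye orders equal weight. It was then not the plain mean of the arrays left. Adjusted p is two-sided, after Benjamini-Hochberg correction over 22455 genes. The SD between arrays still holds the dye effect. Levels are log2 intensity after loess and Aquantile, and no probe's level is set against another's. The number of arrays limits the precision. All arrays lie on 1 slide. Probe positions are those of the files (mm9). Exons and UTRs are not assigned, as an mm9 annotation was not used here. The fit was tested on simulated data.

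Members, gene lists and motifs were chosen with earlier results of these data known. All members are named, together with up to 3 of the largest falls and rises past the test in each related list, the markers of the compound's effect and the 5 genes most like Fos. Other genes are marked. Of the marker genes and of further members of the lists, some are named as examples. A few genes of the lists are not reported here and were left out of the counts of their lists.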

Additional observations from a re-analysis of the deposited data

Results flagged for a closer look

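Over the 4 arrays of each of 60 genes looked at (the members, the list genes covered by the naming rule and the genes most like Fos), 1 array lay far from the other 3 in 2 genes, where chance alone gives about 1 in 20. For Klf4 it was array 3, with a log2 ratio of -0.0356 against 0.33 to 0.39 on the others. For Mlxipl it was array 2, with 0.18 against 0.01 to 0.02.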

How the results depend on the processing

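Each member was refitted under up to 14 alternatives, and Fosb and Junb under 13, since a limit of 100 on the processed signal removed them. Junb kept its call in all of these (log2 ratio 0.21 to 0.36), Jun and Egr2 lost theirs only with the authors' rounded series table (log2 ratios of -0.47 and -0.60, adjusted p = 0.124 and 0.0745 in limma), where Fos passed (0.07, adjusted p = 0.00754). Jund lost its call with the processed signals (0.051) and the series table (0.112) as well as in the fits named with its values. The fitted log2 ratio of Egr1 changed sign without replicate 2 (0.02, adjusted p = 0.794). That fit gave array 4 as much weight as arrays 1 and 3 together. Their log2 ratios were 0.17, -0.11 and -0.13. The count of lower members was 0 with the series table and 2 in each fit without 1 replicate. The count of higher members was 1 with the limit of 100 on the processed signal and 1 to 3 without 1 replicate, the lowest without replicate 1. Over all genes, against 3360 lower and 4068 higher, the series table gave 2050 lower and 1833 higher, and leaving out 1 replicate gave 2180 to 2813 lower, the fewest without replicate 3, and 2878 to 3345 higher. The causes were not tested. In the main fit the channels of an array are paired. With the 8 channels as separate samples and no replicate block, 4617 genes were lower and 5343 higher, with 2 and 3 members among them, and no member's call changed. The offset draws ratios of dim probes, as for Junb, Fosb and Fosl1, towards 0, so that their changes and their SD between arrays can be understated. With the processed signals the log2 ratio was 0.36 for Junb and 0.22 for Fosb.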
